A study of Mus musculus with 24 samples.

Results

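Tcf7, Gata3, Bcl11b, Lef1, Gfi1, Tox, Ets1 and Myb encode DNA-binding proteins that start, fix or support the T-lineage program. They were chosen by name as T-lineage transcription factors and matched by gene symbol in both deposited expression files, where 8 of the 55487 listed genes met this rule. The study asked how RUNX proteins, which bind DNA together with the shared subunit Cbfβ, act in lymphoid progenitors (LPs) before and after Notch stimulation. The cells were Cas9-LPs, a line derived from progenitors of mouse fetal liver that lack Ebf1 and carry Cas9 at the Rosa26 locus, grown with SCF, Flt3L and IL-7 on stroma. Every group, controls included, therefore carried the Ebf1 deficiency and Cas9, and every group received a retroviral sgRNA vector marked by human NGFR. The control guide, sgControl, targeted luciferase, and pooled vectors were used against each mouse gene.

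Experiment 1 held LPs on OP9 stroma and Phase 1 cells on OP9-DLL4 stroma, which presents the Notch ligand DLL4, each with sgControl or sgCbfb. Experiment 2 held LPs on OP9 with sgControl, sgCbfb, sgCTCF or sgMed12. Each of the 8 groups had 3 libraries, 24 in all, made from hNGFR+CD45+ cells sorted 5 days after sgRNA transduction. Notch stimulation of the Phase 1 cells lasted 2 days. All libraries came from Cas9-LPs, so the p-values below measure only the spread between these samples.

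Transcripts were counted from their 3′ ends by QuantSeq FWD. The deposited values, which the authors call TPM, are read counts scaled to the same total per library (counts per 1e+06 reads on genes, CPM). They are not divided by gene length. Each test compared a gene only with itself, and marker sums added CPM over genes. Libraries held 1363263 to 1743319 reads on genes in experiment 1 (median 1553496) and 3354484 to 4326784 in experiment 2 (median 3658893). A value of 0 in a library allows up to 1.72 to 2.20 CPM in experiment 1 and 0.693 to 0.894 CPM in experiment 2, taking 3 reads as the limit and counting error only. Differences were tested with limma on log2(CPM + 1) over all genes that reached 1 CPM in 3 or more libraries, 13239 genes in experiment 1 and 13177 in experiment 2, and p was adjusted by Benjamini-Hochberg. Calls required an adjusted p below 0.05, group means that differed by more than 1 on the log2 scale, and a mean above 10 CPM for at least 1 of the groups compared. All 8 genes passed the filter in both experiments.

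Early T-cell progenitors switch on TCF-1 (the product of Tcf7) and GATA3 in response to Notch, and then Bcl11b, which is required for commitment to the T lineage. These factors act beside proteins that are already present in lymphoid progenitors, such as Ets1 and c-Myb, and beside RUNX complexes. CTCF organises chromatin loops, and Med12 belongs to the kinase module of Mediator, the complex that links DNA-bound factors to RNA polymerase II.

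A pair of libraries stood apart from their own group. The squared difference between replicate counts, relative to that expected from counting alone and averaged over genes, was 10.7 and 8.75 for the pairs that hold Phase 1 sgControl replicate 3, against 3.51 for the remaining pair. For sgMed12 it was 17.6 and 9.43 for the pairs that hold replicate 2, against 4.49 for the remaining pair. Mitochondrial transcripts took 13.7%, 8.44% and 11.2% of reads in sgMed12 replicates 1, 2 and 3 and 6.76% to 8.15% in the other libraries of experiment 2. Their part in the sgMed12 results was not tested. For the 8 genes, calls that depend on replicate 3 of Phase 1 sgControl or replicate 2 of sgMed12 are given with and without that library. Named genes of the lists whose call was lost when a library was left out are given with their list.

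Marker genes of the labelled cells were detected. The summed CPM of 6 LP markers (Ptprc, Flt3, Il7r, Kit, Dntt, Cd34) averaged 1496 ± 115 (SD, n = 3) in LP sgControl cells and 1226 ± 53.2 in Phase 1 sgControl cells of experiment 1. The sum of 8 Phase 1 markers (Il2ra, Dtx1, Hes1, Notch3, Kit, Cd44, Ptcra, Ptprc), of which Kit and Ptprc are also in the LP list, averaged 760.7 ± 83.0 CPM in the former and 1551 ± 134 CPM in the latter, and 5 of the 8 (all but Cd44, Ptcra and Ptprc) were called higher in Phase 1 cells. Ptprc was the most abundant gene of both sums. Its means were 619.9 CPM in LP sgControl cells and 732.7 CPM in Phase 1 sgControl cells. Markers of other cells were low in all groups. The sum of 5 B-lineage markers was at most 6.35 CPM and that of 4 erythroid markers at most 2.58 CPM in any library, with Cd79a at 0 in every group of both experiments. The 6 myeloid markers summed to 11.2 to 47.4 CPM, most often led by Itgam, with Cd14 at 0 in all 8 groups. The 10 markers of OP9 stroma summed to 2.14 to 58.8 CPM, with Col3a1 and Dcn at 0 in all 8 groups. The 4 mature T markers summed to 1.79 to 46.5 CPM, of which most was Trac.

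The exception was the list of natural killer (NK) or innate lymphoid genes (Ncr1, Klrb1c, Nkg7, Prf1, Gzma). Their sum was 2985, 2501 and 3281 CPM in the Phase 1 sgControl libraries, 124.5, 93.6 and 77.8 CPM in the Phase 1 sgCbfb libraries and at most 41.6 CPM in any LP library. Gzma, which encodes a granzyme, made up most of it, with a mean of 2769 CPM in Phase 1 sgControl cells. Gzma and Nkg7 were called higher in Phase 1 than in LP cells with sgControl, and lower with sgCbfb in Phase 1 cells. Ncr1 was 0 in all 4 groups of experiment 1. Phase 1 sgControl cells, highest for this list, were also the group with the highest Tcf7, Gata3 and Bcl11b in experiment 1, and the part of cells with this signal in those results was not tested.

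The targeted genes were checked first. With sgCbfb, Cbfb mRNA fell from 86.5 ± 9.30 to 40.2 ± 5.18 CPM in LPs of experiment 1 (log2 fold change -1.09 ± 0.22 SE, adjusted p 0.0055, limma) and from 114.3 ± 8.37 to 48.4 ± 6.93 CPM in experiment 2 (-1.23 ± 0.16, adjusted p 4.3e-06). Phase 1 cells held 53.9 ± 9.69 CPM of Cbfb mRNA with sgCbfb and 66.5 ± 19.2 CPM with sgControl, with no call (-0.27 ± 0.22, adjusted p 0.59). The groups overlapped through replicate 3 of Phase 1 sgControl, at 44.7 CPM against 73.4 and 81.3 CPM in the other sgControl libraries. Without it the log2 fold change was -0.53 ± 0.21, also uncalled (adjusted p 0.15, range with each library left out 0.15 to 0.87). Ctcf mRNA was 305.7 ± 30.0 CPM with sgCTCF and 391 ± 30.8 CPM with sgControl (-0.36 ± 0.10, adjusted p 0.021), short of the fold threshold. Med12 mRNA was 7.01 ± 3.38 CPM with sgMed12 and 5.14 ± 1.26 CPM with sgControl, with no call (0.30 ± 0.35, adjusted p 0.66). The groups overlapped through replicate 2 of sgMed12, at 3.20 CPM against 9.61 and 8.23 CPM in the other sgMed12 libraries. Without it the log2 fold change was 0.71 ± 0.35, also uncalled (adjusted p 0.15, range with each library left out 0.15 to 0.97). Tags near the 3′ end of a transcript do not read the edited exon, so these values are no direct check of editing. The authors checked protein instead, by immunoblot of Cas9-LPs 3 days after sgRNA transduction. They report loss of the Cbfβ protein, and show blots for CTCF and Med12 as a check of depletion.

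**Figure D1:**
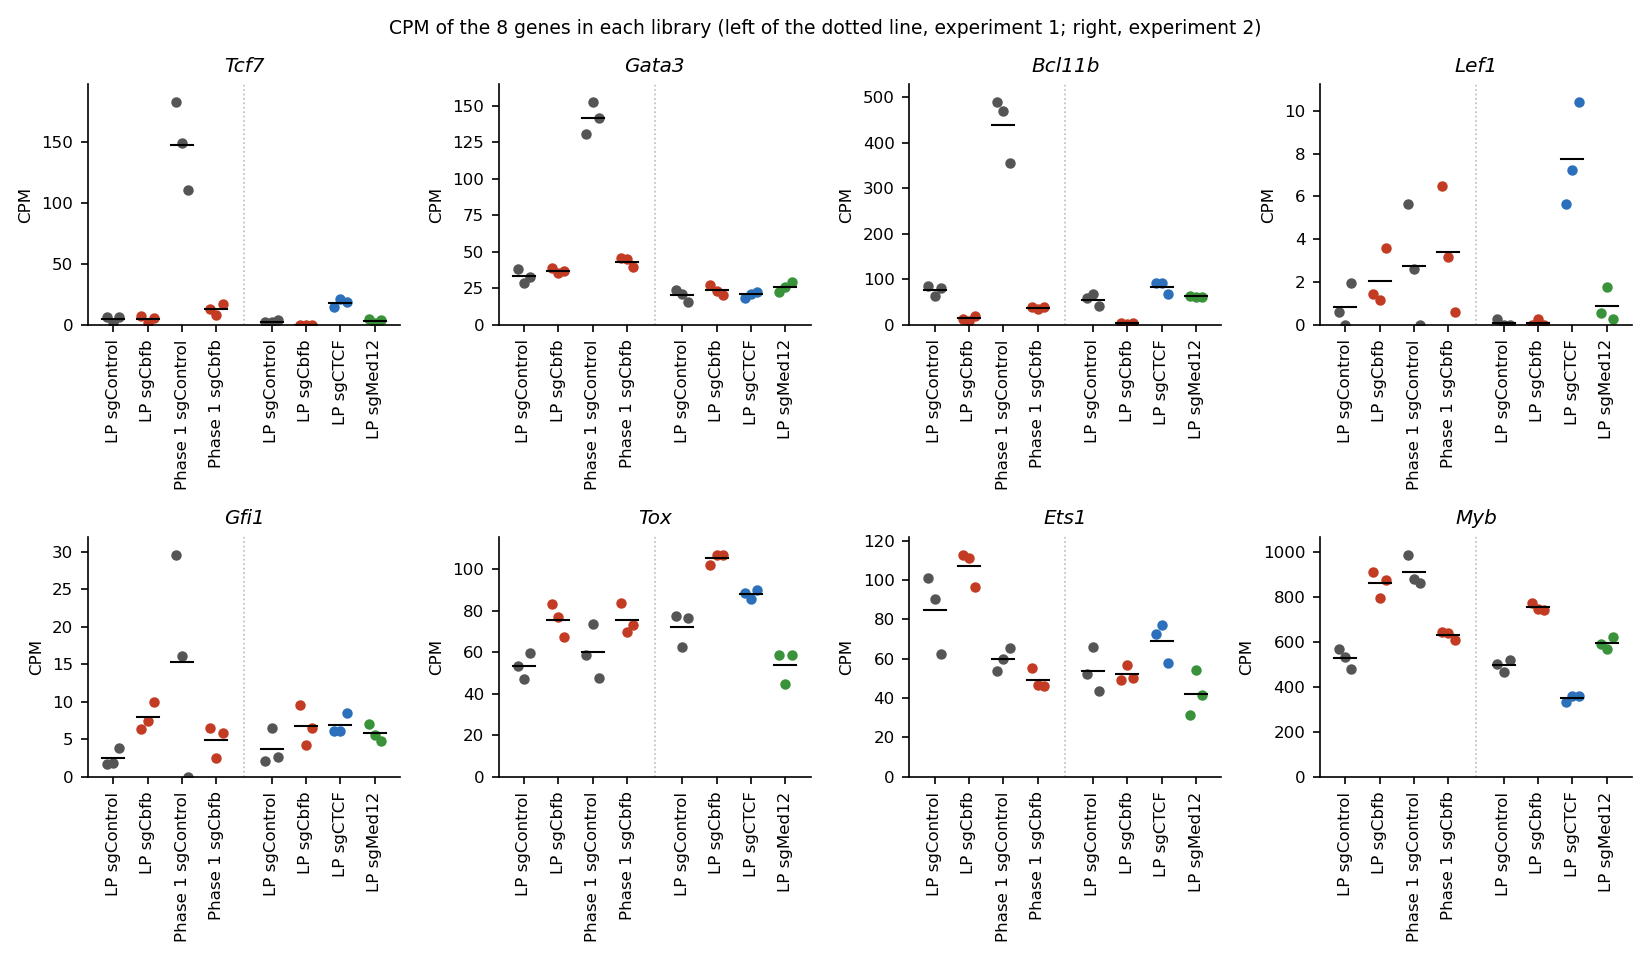
CPM of the 8 genes in each library, with a dot per library and a bar at the group mean; experiment 1 lies left of the dotted line and experiment 2 right of it. Tcf7, Gata3 and Bcl11b are highest in Phase 1 sgControl cells, where their means are 147.5, 141.5 and 438.4 CPM.

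The first question was how the 8 genes responded to Notch stimulation. Tcf7, Gata3 and Bcl11b rose from LPs to Phase 1 cells with sgControl, 3 of 8 genes called, against 3.39% of all genes tested. The median log2 fold change of the 8 genes was 1.02, against -0.07 over all genes tested. Trac, a mature T marker, was called lower, with means of 30.3 and 5.15 CPM, and its part in the result was not tested. The remaining genes, Lef1, Gfi1, Tox, Ets1 and Myb, did not meet the call rule. As the libraries are bulk RNA, fewer cells that express a gene and less RNA per cell cannot be told apart in any of these results.

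Tcf7 encodes TCF-1, a high-mobility-group protein and an early Notch target in the T lineage. Its gene (ENSMUSG00000000782) lies at chr11:52252371-52283014 on the minus strand (GRCm38, GENCODE M21). Its values were 5.90, 1.24 and 6.42 CPM in LP sgControl libraries and 183, 149 and 111 CPM in Phase 1 sgControl libraries of experiment 1. Every Phase 1 library was thus above every LP library by a wide margin. The mean rose from 4.52 ± 2.86 to 147.5 ± 36.1 CPM, 32.6-fold (log2 fold change 4.90 ± 0.49, adjusted p 3.7e-07). Leaving out replicate 3 of Phase 1 sgControl, the lowest of its group, gave 5.10 (adjusted p 4.8e-10).

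Gata3 encodes a zinc-finger factor needed from the earliest intrathymic stage (ENSMUSG00000015619, chr2:9857078-9890034, minus strand). It was read at 38.4, 28.5 and 32.8 CPM in LP sgControl libraries and at 131, 152 and 142 CPM in Phase 1 sgControl libraries. The groups did not overlap, and Gata3 was thus well above 0 before Notch stimulation. Its mean rose 4.26-fold (2.07 ± 0.19, adjusted p 1.2e-07), and by 2.06 without replicate 3 of Phase 1 sgControl.

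Bcl11b encodes a zinc-finger factor that closes off alternative fates at commitment (ENSMUSG00000048251, chr12:107910403-108003602, minus strand). LP sgControl libraries held 85.6, 62.5 and 80.9 CPM and Phase 1 sgControl libraries 489, 470 and 356 CPM. It was present in every LP library and higher in every Phase 1 library. The mean rose 5.74-fold, from 76.3 ± 12.2 to 438.4 ± 72.2 CPM (2.50 ± 0.25, adjusted p 4e-07), and by 2.65 without replicate 3 of Phase 1 sgControl.

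Myb, which encodes c-Myb, a factor of hematopoietic progenitors and thymocytes (ENSMUSG00000019982), lies at chr10:21124935-21160984 (minus strand). It was 571, 531 and 480 CPM in LP sgControl libraries and 990, 881 and 864 CPM in Phase 1 sgControl libraries. The groups did not overlap, and the difference of 1.73-fold (0.79 ± 0.10, adjusted p 1.9e-05) stayed under the fold threshold. Ets1, an ETS-family factor of lymphocytes (ENSMUSG00000032035, chr9:32636221-32757820, plus strand), was 101, 90.4 and 62.3 CPM in LPs and 53.6, 60.0 and 65.3 CPM in Phase 1 cells, with overlapping groups (adjusted p 0.16). Tox, a high-mobility-group factor that acts in CD4 T-cell and innate lymphoid development (ENSMUSG00000041272, chr4:6686353-6991557, minus strand), had means of 53.3 ± 6.34 and 59.9 ± 13.0 CPM, also with overlapping groups (adjusted p 0.72).

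Gfi1 encodes a zinc-finger repressor (ENSMUSG00000029275, chr5:107716657-107726036, minus strand), and its result turned on a single library. It was 1.77, 1.86 and 3.85 CPM in LP sgControl libraries and 29.6, 16.1 and 0 CPM in Phase 1 sgControl libraries. The value of 0 is that of replicate 3, which stood apart across genes. With all libraries Gfi1 was not called (log2 fold change 1.26 ± 0.83, adjusted p 0.43). Without that replicate it met the call rule, with 2.76 ± 0.58 and an adjusted p of 0.00096, and with edgeR on the recovered reads it met it with all libraries (adjusted p 0.024). Over all alternatives its adjusted p ran from 0.00096 to 0.88.

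Lef1 encodes the relative of TCF-1 that binds the same DNA motif (ENSMUSG00000027985, chr3:131110471-131224356, plus strand). It was near the limit of detection in experiment 1. LP sgControl libraries held 0.590, 0 and 1.93 CPM and Phase 1 sgControl libraries 5.65, 2.58 and 0 CPM. A change of Lef1 with Notch stimulation was not detectable at this depth (0.78 ± 0.71, adjusted p 0.59), and the log2 fold change was 1.55 without replicate 3 of Phase 1 sgControl.

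The second question was how targeting Cbfb changed the same genes in Phase 1 cells. Tcf7, Gata3 and Bcl11b fell with sgCbfb, 3 of 8 genes called, against 3.52% of all genes tested. These are the genes called higher with Notch stimulation, and both comparisons share the Phase 1 sgControl libraries. The median log2 fold change of the 8 genes was -0.52, against 0.06 over all genes tested. Stage markers moved in the same comparison. With sgCbfb the LP markers Dntt, Flt3 and Cd34 and the Phase 1 marker Cd44 were called higher, and the Phase 1 marker Il2ra lower. The LP sum averaged 1226 CPM with sgControl and 1420 CPM with sgCbfb, and the Phase 1 sum 1551 and 1193 CPM. Ptprc, which is in both sums, averaged 732.7 CPM with sgControl and 604.9 CPM with sgCbfb. The part of these markers in the result was not tested.

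Tcf7 in Phase 1 sgCbfb libraries was 13.0, 8.17 and 17.1 CPM, against 183, 149 and 111 CPM with sgControl. The ranges lay far apart, and Tcf7 fell 11.6-fold (log2 fold change -3.46 ± 0.49, adjusted p 6.3e-05). Gata3 was 45.4, 44.6 and 39.5 CPM with sgCbfb, close to its LP values and below every Phase 1 sgControl library, and fell 3.28-fold (-1.69 ± 0.19, adjusted p 3.5e-06). Bcl11b was 38.9, 35.2 and 38.3 CPM with sgCbfb, below even the LP sgControl libraries. It fell 11.7-fold (-3.50 ± 0.25, adjusted p 3.9e-09). Without replicate 3 of Phase 1 sgControl the values were -3.65 for Tcf7, -1.69 for Gata3 and -3.64 for Bcl11b.

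Myb was 645, 641 and 609 CPM in Phase 1 sgCbfb libraries, all below the Phase 1 sgControl libraries. The difference (-0.53 ± 0.10, adjusted p 0.0022) was under the fold threshold. Tox and Ets1 overlapped between the guides, with adjusted p of 0.37 and 0.5. Gfi1 was 6.48, 2.51 and 5.89 CPM with sgCbfb and was not called (-0.51 ± 0.83, adjusted p 0.82). Without replicate 3 of Phase 1 sgControl it was called lower (-2.02 ± 0.58, adjusted p 0.025, range over the alternatives 0.025 to 0.99). Lef1 was 6.48, 3.14 and 0.589 CPM, a spread as wide as that of its control group.

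Cells with sgCbfb were also compared between stages, to see which genes still differed after Notch stimulation. Among the 8 genes 2 were called, Bcl11b higher and Ets1 lower in Phase 1 cells, against 1.19% of all genes tested. Bcl11b was 13.4, 7.46 and 19.98 CPM in LP sgCbfb libraries and 38.9, 35.2 and 38.3 CPM in Phase 1 sgCbfb libraries. The groups did not overlap, and Bcl11b rose 2.75-fold (1.49 ± 0.25, adjusted p 0.00095). This call was lost when only the compared groups were fitted (adjusted p 0.067) and without moderated variances (adjusted p 0.064), over a range of 5.4e-06 to 0.067. Ets1 was 113, 111 and 96.3 CPM in LP sgCbfb libraries and 55.1, 46.5 and 46.0 CPM in Phase 1 sgCbfb libraries. All LP values were above all Phase 1 values, and Ets1 fell 2.17-fold (-1.10 ± 0.19, adjusted p 0.0013). Gata3 in these groups had means of 36.9 ± 1.68 and 43.2 ± 3.21 CPM, did not overlap, and was not called (0.22 ± 0.19, adjusted p 0.74). Myb was lower in every Phase 1 library with sgCbfb than in every LP library (-0.44 ± 0.10, adjusted p 0.019), short of the fold threshold and opposite in sign to its difference between stages with sgControl. Tcf7 had means of 4.83 ± 2.77 and 12.7 ± 4.47 CPM, did not overlap, and was not called (1.33 ± 0.49, adjusted p 0.21). Of the marker genes for other cells, Mpo was called lower and Gzma higher between the same groups, and what a change of cells contributed to the differences above was not tested.

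**Figure D2:**
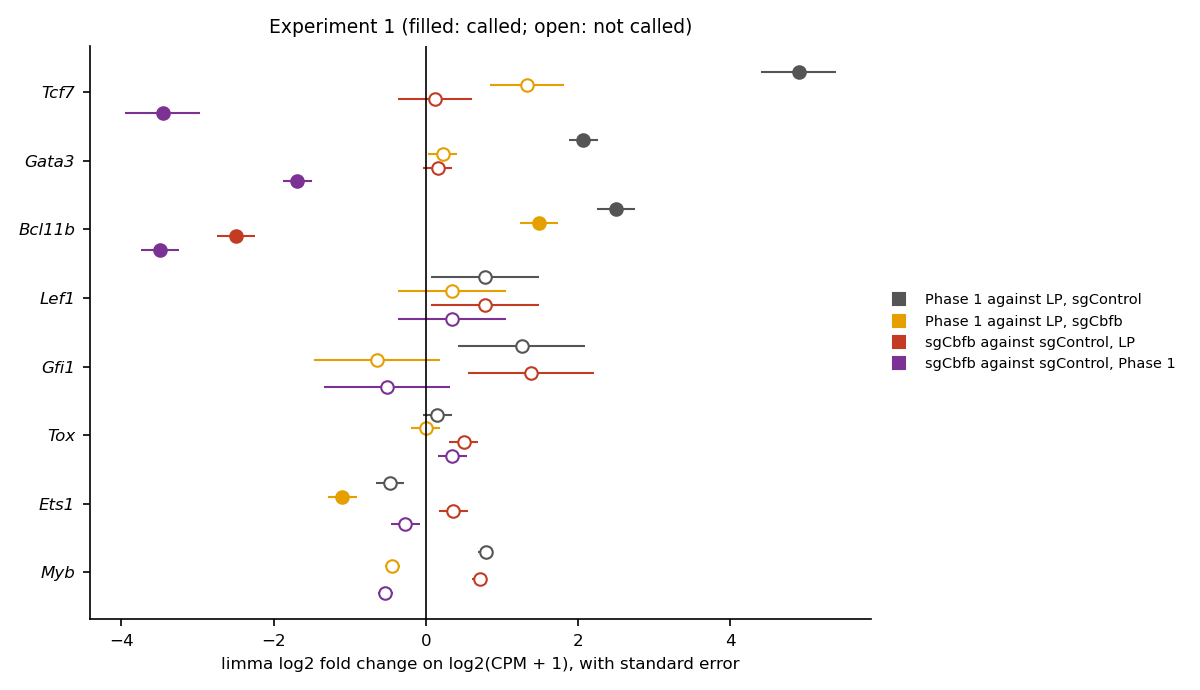
Log2 fold changes of the 8 genes in the 4 comparisons of experiment 1 (limma on log2(CPM + 1), bars are standard errors, filled symbols are called genes). Tcf7, Gata3 and Bcl11b lie right of 0 for Phase 1 against LP with sgControl and left of 0 for sgCbfb in Phase 1 cells.

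Whether the effect of sgCbfb differed between stages was tested as an interaction, the sgCbfb effect in Phase 1 cells minus that in LPs, called at an adjusted p below 0.05 where at least 1 of the 4 groups averaged more than 10 CPM. Tcf7, Gata3 and Myb were called, 3 of 8 genes, all with negative values, against 1.19% of all genes tested. The interaction was -3.58 ± 0.69 for Tcf7 (adjusted p 0.007). That call was lost without moderated variances (adjusted p 0.14, range over the alternatives 0.00029 to 0.14). For Gata3 it was -1.85 ± 0.27 (adjusted p 0.0005) and for Myb -1.23 ± 0.15 (adjusted p 3.8e-05). Without replicate 3 of Phase 1 sgControl these were -3.77, -1.85 and -1.27. Myb had been higher with sgCbfb in LPs and lower with sgCbfb in Phase 1 cells, and in neither stage past the fold threshold.

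Bcl11b was lower with sgCbfb in both stages, and the difference between stages was not called (-1.01 ± 0.35, adjusted p 0.25). It was called without replicate 2 of LP sgCbfb (-1.36, adjusted p 0.024) and with a pseudocount of 5 (-1.20, adjusted p 0.043), over a range of 0.024 to 0.5. The Gfi1 interaction was -1.90 ± 1.17 (adjusted p 0.62) with all libraries and -3.40 ± 0.78 (adjusted p 0.0081) without replicate 3 of Phase 1 sgControl, with a range of 0.0081 to 0.88. The values for Lef1, Tox and Ets1 were -0.43, -0.15 and -0.63, none of them called.

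Targeting of Cbfb in LPs was measured in both experiments. Bcl11b fell in each, the only gene of the 8 called, against 1.69% of all genes tested in experiment 1 and 4.33% in experiment 2. In experiment 1 it went from 85.6, 62.5 and 80.9 CPM with sgControl to 13.4, 7.46 and 19.98 CPM with sgCbfb. In experiment 2 it went from 57.5, 66.8 and 41.1 CPM to 2.98, 1.34 and 4.53 CPM. Neither pair of groups overlapped. The decrease was 5.61-fold in experiment 1 (log2 fold change -2.49 ± 0.25, adjusted p 1.4e-06) and 18.7-fold in experiment 2 (-3.89 ± 0.23, adjusted p 2.3e-12). The difference between the experiments was not tested. Stage markers moved in LPs too. The LP markers Dntt and Cd34 and the Phase 1 markers Il2ra and Cd44 were called higher with sgCbfb in both experiments. So was Kit, of both lists, in experiment 1, and no stage marker was called lower. The mean LP sum rose from 1496 to 1891 CPM in experiment 1 and from 1304 to 1551 CPM in experiment 2. The mean Phase 1 sum rose from 760.7 to 874.2 CPM and from 716.8 to 822.1 CPM. Markers of other cells moved in the same comparison of experiment 2, where Mpo was called higher and Trac and Nkg7 lower. The mean sums with sgControl and sgCbfb were 14.9 and 38.1 CPM for myeloid, 30.1 and 4.78 CPM for mature T and 16.1 and 2.66 CPM for NK or innate lymphoid markers. In experiment 1 they were 20.3 and 36.5 CPM, 32.1 and 12.3 CPM, and 20.1 and 7.75 CPM. The part of the stage markers, or of cells with these other signals, in the result was not tested.

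Tcf7 was low in LPs of both experiments. In experiment 1 it was 7.05, 1.72 and 5.71 CPM with sgCbfb, over the same range as sgControl (adjusted p 0.97). In experiment 2 it was 1.85, 2.36 and 3.41 CPM with sgControl and 0 in all 3 sgCbfb libraries. This is at least 3.10-fold lower, taking 3 reads per library as the limit (adjusted p 0.00075). Both means were under 10 CPM, so Tcf7 was not called there. The difference in the sgCbfb effect on Tcf7 between the experiments was not tested.

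Myb was higher with sgCbfb in every LP library of both experiments. In experiment 1 it was 913, 797 and 874 CPM against 571, 531 and 480 CPM with sgControl (0.71 ± 0.10, adjusted p 0.00016). In experiment 2 it was 776, 749 and 741 CPM against 504, 468 and 521 CPM (0.60 ± 0.09, adjusted p 2.1e-05). The groups did not overlap in either, and both differences were under the fold threshold. Tox showed 83.2, 76.9 and 67.1 CPM with sgCbfb against 53.1, 47.1 and 59.7 CPM in experiment 1 (0.50 ± 0.19, adjusted p 0.24). In experiment 2 it showed 102, 107 and 107 CPM against 77.5, 62.6 and 76.2 CPM (0.55 ± 0.13, adjusted p 0.0041). Tox was uncalled in both.

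Gata3 did not separate by guide in LPs, with means of 36.9 ± 1.68 and 33.2 ± 4.96 CPM in experiment 1 and 23.5 ± 3.39 and 20.1 ± 4.15 CPM in experiment 2 for sgCbfb and sgControl. Ets1 likewise overlapped, with adjusted p of 0.5 and 0.95. Gfi1 was 6.35, 7.46 and 9.99 CPM with sgCbfb in experiment 1, all above its control libraries, and was not called (adjusted p 0.59). In experiment 2 its groups overlapped. Lef1 stayed at or below 3.57 CPM in every LP library with sgControl or sgCbfb. For the 8 genes the median log2 fold change was 0.43 in experiment 1 and 0.12 in experiment 2, against 0.00 and -0.01 over all genes tested.

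Ctcf was targeted in LPs of experiment 2. Tcf7 rose with sgCTCF, 1 of 8 genes called, against 2.43% of all genes tested. It was 14.2, 20.9 and 18.9 CPM with sgCTCF against 1.85, 2.36 and 3.41 CPM with sgControl. All sgCTCF libraries were above all libraries of the other 3 groups of experiment 2. The rise was 7.10-fold (log2 fold change 2.43 ± 0.36, adjusted p 4.2e-05). With a mean over 20 CPM required in place of 10, the call was lost, as the sgCTCF mean was 18.0 ± 3.43 CPM. The summed OP9 stroma markers were 40.5, 31.5 and 20.3 CPM in the sgCTCF libraries and 43.3, 8.86 and 7.55 CPM in the sgControl libraries. The NK or innate lymphoid markers summed to 41.6, 40.7 and 33.7 CPM with sgCTCF and 18.7, 14.5 and 15.1 CPM with sgControl. Prf1 of that list was called higher. The mature T markers summed to 46.4, 41.8 and 46.5 CPM with sgCTCF and 39.3, 28.1 and 22.9 CPM with sgControl, with no call. All libraries came from cells sorted as hNGFR+CD45+. The part of cells with any of these signals in the Tcf7 and Lef1 values was not tested.

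Lef1 was also higher in the sgCTCF libraries and was not called, as its mean was under 10 CPM. It was 5.63, 7.24 and 10.4 CPM with sgCTCF and 0.263, 0 and 0 CPM with sgControl. Every sgCTCF library was above every other LP library of experiment 2, among which the highest Lef1 value was 1.74 CPM. Lef1 passed the filter in experiment 2 through the sgCTCF libraries, since 1.74 CPM was the only value over 1 CPM elsewhere. Its p-value is therefore not given. The sgControl group was below the detection limit, so the rise is stated as at least 9.666-fold, taking 3 reads per library as the limit. The fitted log2 fold change, 2.98, depends on the pseudocount, from 1.31 to 6.02 over the alternatives, and is not used as its size. Myb was 335, 358 and 361 CPM with sgCTCF, below all sgControl libraries, a difference under the fold threshold (-0.50 ± 0.09, adjusted p 0.00049). Bcl11b was 91.2, 90.8 and 68.0 CPM with sgCTCF, all above the sgControl libraries, and was not called (0.60 ± 0.23, adjusted p 0.1). Gata3, Gfi1 and Ets1 overlapped between sgCTCF and sgControl. Tox was higher in each sgCTCF library, with 85.8 to 90.1 CPM against 62.6 to 77.5 CPM (adjusted p 0.17).

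Med12 was targeted in the same experiment. None of the 8 genes was called (0 of 8, limma), against 1.03% of all genes tested. At an unadjusted p under 0.05 there were 2 of the 8, against 23.4% of all genes tested, and edgeR called 0. Tox came nearest, with 58.8, 44.5 and 58.5 CPM against 77.5, 62.6 and 76.2 CPM with sgControl (-0.42 ± 0.13, adjusted p 0.047). Its groups did not overlap and the difference was under the fold threshold. Without replicate 2 of sgMed12 it was -0.29 (adjusted p 0.084, range over the alternatives 0.038 to 0.2). Bcl11b was 63.6, 60.7 and 61.6 CPM, inside the range of sgControl. Tcf7 was 4.52, 1.16 and 3.41 CPM, also overlapping sgControl, and without replicate 2 its log2 fold change was 0.50 in place of 0.11. Without that replicate Ets1 (-0.55, adjusted p 0.015, range over the alternatives 0.015 to 0.69) and Myb (0.29, adjusted p 0.01, range 0.01 to 0.26) had adjusted p under 0.05, short of the fold threshold, against 0.22 and 0.079 with all libraries.

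**Figure D3:**
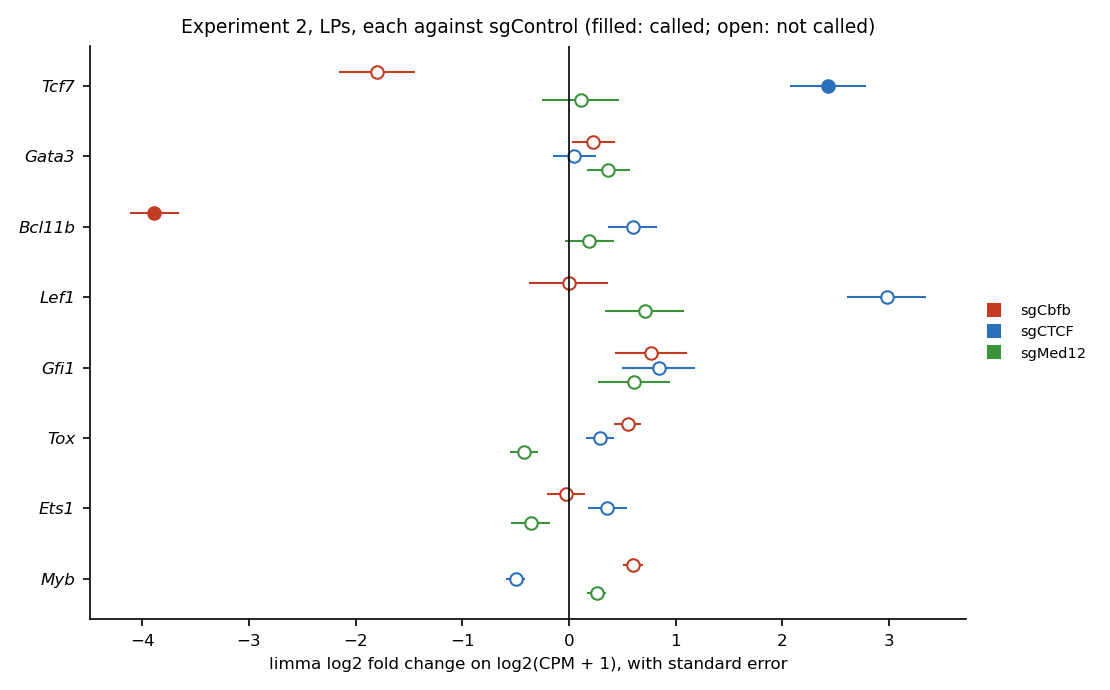
Log2 fold changes of the 8 genes in LPs of experiment 2 with sgCbfb, sgCTCF or sgMed12, each against the same sgControl libraries (limma on log2(CPM + 1), bars are standard errors, filled symbols are called genes). Bcl11b with sgCbfb (-3.89) and Tcf7 with sgCTCF (2.43) are the called values. Lef1 with sgCTCF (2.98) is open because its mean is under 10 CPM. Lef1 passed the filter through the sgCTCF libraries and was below the detection limit with sgControl, so 2.98 depends on the pseudocount.

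The 3 comparisons with sgControl in experiment 2 share its libraries, so the guides were also compared with each other. Between sgCTCF and sgCbfb 3 of the 8 genes were called, against 6.87% of all genes tested. Bcl11b was 28.2-fold higher with sgCTCF (4.49 ± 0.23, adjusted p 1e-13). Tcf7, which was 0 in every sgCbfb library, was at least 22.02-fold higher with sgCTCF (adjusted p 1.4e-09, limma). Its fitted log2 fold change, 4.23 ± 0.36, depends on the pseudocount and ran from 2.19 to 9.07 over the alternatives. Myb was 2.15-fold lower (-1.10 ± 0.09, adjusted p 8e-10). The groups did not overlap for these genes, which were picked by their calls, and the share of such genes over all genes was not counted. The Tcf7 call was lost with a mean over 20 CPM required. Of the markers of other cells, Trac (mature T), Nkg7 and Prf1 (NK or innate lymphoid) were called higher and Mpo (myeloid) lower with sgCTCF than with sgCbfb, and the part of cells with these signals was not tested.

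Between sgMed12 and sgCbfb 1 of the 8 genes was called, against 4.48% of all genes tested. This was Bcl11b, 20.99-fold higher with sgMed12 (4.08 ± 0.23, adjusted p 1e-12, and 4.09 without replicate 2 of sgMed12). Trac, Nkg7 and the OP9 stroma marker Pdgfrb were also called higher, and Mpo lower, and their part in the result was not tested. Tox was 1.95-fold lower with sgMed12 (-0.96 ± 0.13, adjusted p 4e-06), just short of the fold threshold. It passed when replicate 1 or replicate 3 of sgMed12 was left out, with -1.03 in each case and adjusted p of 1.8e-06 and 1.9e-05, over a range of 1.8e-06 to 0.0019. Tcf7 was at least 3.70-fold higher with sgMed12 (adjusted p 0.00039), with both means under 10 CPM. Its fitted log2 fold change was 1.91, and 2.30 without replicate 2 of sgMed12. As Tcf7 was 0 with sgCbfb, this value depends on the pseudocount, from 0.66 to 6.53 over the alternatives.

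Between sgMed12 and sgCTCF 1 of the 8 genes was called, against 4.01% of all genes tested. Tcf7 was 5.95-fold lower with sgMed12 (-2.33 ± 0.36, adjusted p 6.1e-05), or -1.93 without replicate 2 of sgMed12, and was again lost with a mean over 20 CPM required. Prf1 was also called lower and Pdgfrb higher with sgMed12, and their part in the result was not tested. Lef1, which passed the filter through the sgCTCF libraries, had means of 0.864 ± 0.775 and 7.76 ± 2.43 CPM, with no overlap, and stayed uncalled. Myb (0.76 ± 0.09), Ets1 (-0.72 ± 0.18) and Tox (-0.71 ± 0.13) had adjusted p under 0.05 and did not overlap, and were under the fold threshold. Without replicate 2 of sgMed12, Myb was 0.79, Ets1 -0.91 and Tox -0.58.

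The order of levels over groups differed by gene. For Tcf7 in experiment 1 it was Phase 1 sgControl, then Phase 1 sgCbfb, then the LP groups, which overlapped each other. In experiment 2 it was sgCTCF, then sgMed12 and sgControl, which overlapped, then sgCbfb. For Bcl11b it was Phase 1 sgControl, LP sgControl, Phase 1 sgCbfb and LP sgCbfb, each apart from its neighbour. In experiment 2 sgCTCF was highest and sgCbfb lowest, with sgMed12 and sgControl overlapping between them. For Gata3 only Phase 1 sgControl in experiment 1 stood well above the rest, and the 4 LP groups of experiment 2 overlapped, with values of 15.6 to 29.5 CPM. For Myb the order was Phase 1 sgControl and LP sgCbfb, which overlapped, then Phase 1 sgCbfb, then LP sgControl. In experiment 2 it was sgCbfb, sgMed12, sgControl and sgCTCF, with no overlap between neighbours.

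RefSeq promoter windows (GRCm38.p6) were found for 6 of the 8 genes. Tox and Ets1 had no entry. The 250 bases before each start were searched on both strands for the RUNX motif TGTGGT and its variant TGCGGT, the RBPJ motif TGGGAA, the TCF motifs CTTTGA and CTTTGT, the GATA motif AGATAA and a CTCF core AGGNGGC. Of 32851 promoters, 14%, 5.1%, 21.6%, 13.8%, 16.5%, 9.99% and 25% hold these letters, in that order. No window of the 6 genes held a RUNX, RBPJ or GATA match, which says only that these letters are absent from these bases.

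Lef1 has several starts. The window before the start at 131156294 held the TCF letters 3 times, 180, 146 and 120 bases before the start and all on the opposite strand. Its sequence at chr3:131156044-131156293 (plus strand) is shown with these matches in capitals.
Lef1: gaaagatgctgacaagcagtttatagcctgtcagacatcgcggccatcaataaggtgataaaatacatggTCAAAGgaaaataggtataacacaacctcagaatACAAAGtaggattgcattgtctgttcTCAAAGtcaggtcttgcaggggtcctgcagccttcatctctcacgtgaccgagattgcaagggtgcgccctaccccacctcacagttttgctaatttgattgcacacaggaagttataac

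Myb, which differed in opposite directions with sgCbfb in LPs and in Phase 1 cells and was lowest with sgCTCF, held 1 CTCF core, 53 bases before its start. The window at chr10:21160985-21161234 (minus strand) has a GC content of 81.2% and is shown with the match in capitals. It also holds an ATG 96 bases before the start that opens 32 codons with no stop, so the listed start of Myb may lie inside a longer transcript too.
Myb: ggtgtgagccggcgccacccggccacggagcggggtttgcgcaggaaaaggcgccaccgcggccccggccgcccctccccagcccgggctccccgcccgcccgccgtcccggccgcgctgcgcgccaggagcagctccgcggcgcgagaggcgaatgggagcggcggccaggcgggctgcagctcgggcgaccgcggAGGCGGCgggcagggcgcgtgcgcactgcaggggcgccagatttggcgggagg

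For Bcl11b, called in the largest number of comparisons, 188 of the 250 bases lie in annotated exons, and a TCF match lies 89 bases before the start within them. The remaining 62 bases, chr12:108003603-108003664 (minus strand), hold no match.
Bcl11b: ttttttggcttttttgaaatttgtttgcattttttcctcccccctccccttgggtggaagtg

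The window before the first Tcf7 start, chr11:52283015-52283264 (minus strand), held a CTCF core 224 bases before the start. It also held an ATG 165 bases before the start that opens 55 codons with no stop, so the listed start may lie inside a longer transcript and the bases are not shown as a promoter. The Gata3 window and those of the first Lef1 starts lie in annotated exons and hold 1 CTCF core each.

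Reads of overlapping genes can be counted for a neighbour, as the strand setting of the counting is not given. Exons of Tcf7, Bcl11b and Ets1 share no bases with another gene in GENCODE M21. Exons of Gata3, Lef1, Gfi1, Tox and Myb do, with 77 to 1208 shared bases. The overlapping genes were listed at 0.648 CPM or less in every library, except A430072P03Rik on the opposite strand of Gfi1 (101 shared bases), which reached 5.16 CPM in experiment 1 and 1.85 CPM in experiment 2.

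Beside the counts below, the share of all genes called was 1.69% and 4.33% with sgCbfb in LPs of experiments 1 and 2, 3.52% with sgCbfb in Phase 1 cells, 3.39% and 1.19% between stages with sgControl and sgCbfb, and 1.19% for the interaction. It was 2.43% with sgCTCF and 1.03% with sgMed12 against sgControl, 6.87% and 4.48% with these guides against sgCbfb, and 4.01% for sgMed12 against sgCTCF. Structural relatives of the 8 factors were followed as a list of 14 genes, of which 11 were tested in each experiment. With sgCbfb in LPs, Erg and Tcf7l2 rose and Bcl11a fell in both experiments. Erg, an ETS factor, rose 4.40-fold in experiment 1 (2.16 ± 0.31, adjusted p 0.00013) and 4.50-fold in experiment 2 (2.10 ± 0.27, adjusted p 2.6e-06). Tcf7l2, the TCF-4 gene, rose from 10.9 ± 8.16 to 30.6 ± 9.61 CPM in experiment 1 and from 4.70 ± 1.41 to 43.8 ± 6.42 CPM in experiment 2. Bcl11a, the paralog of Bcl11b, fell from 136.3 ± 18.8 to 68.0 ± 14.7 CPM and from 116.1 ± 27.5 to 57.7 ± 0.929 CPM. The list's median log2 fold change was 0.10 in experiment 1 (0.00 with genes near the detection limit set to their bound) and -0.06 in experiment 2 (-0.15 with such genes at their bound).

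Bcl11a went the other way in Phase 1 cells. It was the only relative called there with sgCbfb, and rose from 221.3 ± 8.99 to 464.4 ± 23.4 CPM (1.07 ± 0.15, adjusted p 6.2e-05). Its interaction was 2.07 ± 0.21 (adjusted p 7.7e-06), again the only one called of 11. It also rose 6.83-fold from LPs to Phase 1 cells with sgCbfb. With sgControl, limma called 0 of the 11 relatives between stages, where 5 had an unadjusted p under 0.05, against 19.8% of all genes tested, and edgeR called 0. It also called 0 with sgCTCF and 0 with sgMed12 against sgControl, where 4 and 3 had an unadjusted p under 0.05, against 22.8% and 23.4% of all genes, and edgeR called 0 in each. Erg and Tcf7l2 were both lower with sgCTCF and with sgMed12 than with sgCbfb, the only 2 of 11 called in each. Between sgMed12 and sgCTCF, Erg and Gfi1b were higher with sgMed12. Of 128 calls over the 4 lists, 29 were lost when a library was left out and 0 reversed, 3 of them without replicate 3 of Phase 1 sgControl and 2 without replicate 2 of sgMed12. Among the relatives, the Tcf7l2 call in LPs of experiment 1 (adjusted p 0.047) was lost without LP sgControl replicate 2 or 3, without any LP sgCbfb replicate and without any Phase 1 sgCbfb replicate, with log2 fold changes of 1.15 to 1.78 and a range of 0.0065 to 0.26. Bcl11a in LPs fell short of the fold threshold without LP sgControl replicate 1 (-0.90) or LP sgCbfb replicate 1 (-0.93) or 2 (-0.91) in experiment 1. It did so in experiment 2 without sgControl replicate 2 (-0.79) or sgCbfb replicate 1 (-0.96). With all libraries of experiment 2 the fitted Bcl11a value was already -0.97, and the call rested on the log2 ratio of means, -1.01. Gfi1b was lost without sgMed12 replicate 1 (0.89) or sgCTCF replicate 2 (0.84).

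Other regulators of early T-cell development were listed as 17 genes, of which 14 were tested in experiment 1 and 15 in experiment 2. With Notch stimulation 4 rose and 1 fell. Hes1, a direct Notch target, rose from 1.626 ± 1.498 to 85.9 ± 25.6 CPM (5.22 ± 0.46, adjusted p 5.6e-08), Notch3 rose 8.19-fold and Zfpm1, a GATA cofactor gene, 3.42-fold. Satb1, a chromatin organiser, fell 2.96-fold. Hes1 also rose with sgCbfb, from 4.57 ± 3.00 to 95.7 ± 9.55 CPM, the only gene of 14 called between stages with that guide. The stage effect on Hes1 was thus present in cells where that on Gata3 and Tcf7 was not called.

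With sgCbfb against sgControl, Runx1 rose in each of the 3 comparisons, 2.02-fold in LPs of experiment 1, 2.33-fold in experiment 2 and 2.17-fold in Phase 1 cells. It was the only gene of 14 called in LPs of experiment 1. In experiment 2, 4 of 15 rose, among them Zbtb7b and Zfpm1. In Phase 1 cells Zbtb7b rose and Zfpm1 fell 2.21-fold (-1.14 ± 0.28, adjusted p 0.014). Zfpm1 and Satb1 were the called interactions, at -1.91 and 0.89. Hes1 was the only one of 15 called with sgCTCF (2.24 ± 0.33) and with sgMed12 (2.27 ± 0.33), from a shared sgControl mean of 2.35 ± 0.782 CPM. Against sgCbfb, Id2 and Hes1 were higher with sgCTCF and 4 of 15 were lower, with the largest ratios for Zbtb7b, Runx1 and Zfpm1. With sgMed12, Hes1 was higher than with sgCbfb and 4 of 15 were lower, with the largest ratios for Notch1, Zbtb7b and Zfpm1. Zbtb7b was higher and Id2 lower with sgMed12 than with sgCTCF. Several of these calls depended on a library. Runx1 in LPs of experiment 1 was lost without LP sgControl replicate 2 or 3 (0.96 each) or LP sgCbfb replicate 1 (0.93). Zfpm1 in Phase 1 cells was lost without sgControl replicate 1 (-0.96) or sgCbfb replicate 3 (-0.89), and its interaction without Phase 1 sgCbfb replicate 3 (-1.66). With Notch stimulation Notch3 was 3.64 without LP sgControl replicate 2 and 2.28 without replicate 3, against 2.98 with all, and Hes1 was 4.63 without LP sgControl replicate 2. Hes1 against sgCbfb was lost without sgCbfb replicate 1 or 3 with sgCTCF (1.03 and 0.87) and with sgMed12 (1.07 and 0.90), and without replicate 1 of sgCTCF (0.79) or of sgMed12 (0.81). Zbtb7b was lost without sgCbfb replicate 2 for sgMed12 against sgCbfb (-0.96), and without sgCTCF replicate 1 (0.87) or sgMed12 replicate 3 (0.93) for sgMed12 against sgCTCF.

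T-cell identity genes were 21, of which 20 were tested in experiment 1. With Notch stimulation 8 rose and 0 fell, with a median log2 fold change of 1.22 against -0.07 over all genes. Il2ra rose from 2.61 ± 2.04 to 371.3 ± 33.8 CPM (6.86 ± 0.32, adjusted p 1.7e-12), Trbc1 from 2.67 ± 0.252 to 165.8 ± 11.9 CPM, and Cd3g from 0.411 ± 0.357 to 44.1 ± 12.4 CPM. With sgCbfb in Phase 1 cells 8 of 20 fell and 2 rose, with a median of -1.26 against 0.06. Cd247 fell from 40.7 ± 17.0 to 1.47 ± 1.01 CPM and Cd3g to 2.51 ± 1.19 CPM. Cd28 and Rag1 rose 3.76-fold and 3.49-fold. Between stages with sgCbfb 4 rose and 0 fell, with Trbc2 19.0-fold and Il2ra 5.72-fold higher. The interaction was called for 4 of 20, all negative, with the largest for Cd3g (-4.61), Il2ra (-4.38) and Cd247 (-3.59). The Cd247 interaction was lost without LP sgControl replicate 2 (-3.49), LP sgCbfb replicate 2 (-3.17) or Phase 1 sgCbfb replicate 2 (-3.33). That of Thy1 was lost without any of 6 libraries, LP sgControl replicates 1 and 3, LP sgCbfb replicates 2 and 3 and Phase 1 sgCbfb replicates 1 and 2 (-0.87 to -0.98). Without LP sgCbfb replicate 2 or Phase 1 sgCbfb replicate 2 both calls were lost. Of the 8 calls with Notch stimulation, those of Cd28 and Cd3d were lost without replicate 3 of Phase 1 sgControl (1.12 and 1.64, adjusted p 0.059 and 0.12), with ranges of 0.04 to 0.21 and 0.028 to 0.12. Cd3d was also lost without any of the other sgControl libraries of experiment 1, and Cd28 without any other library of it but LP sgControl replicate 1.

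In LPs, sgCbfb raised 4 and lowered 1 of 20 identity genes in experiment 1 and raised 3 and lowered 4 of 17 tested in experiment 2. Il2ra, Rag1 and Rag2 rose in both, and Lck, which encodes a kinase of T-cell receptor signaling, fell in both, 3.55-fold and 15.5-fold. The medians were -0.24 (-0.21 with genes near the detection limit at their bound) and -0.69. Thus in LPs with sgCbfb some identity genes rose in the libraries in which Bcl11b fell. The authors report higher Lck, Zap70 and Thy1 levels in LPs after Cbfb deletion. Here Lck went the other way in both experiments, and Thy1 was called lower in experiment 2 and was not called in experiment 1. Zap70 was called in neither, and with sgCbfb in experiment 2 it was below the detection limit, at 0.173 ± 0.150 CPM. With sgCTCF, Cd2 (3.64-fold) and Cd247 (3.24-fold) rose and 0 of 17 fell. With sgMed12, limma called 0 of 17, with 3 at an unadjusted p under 0.05 against 23.4% of all genes tested, and edgeR called 0. Against sgCbfb, 7 of 17 were higher with sgCTCF, with the largest ratios for Zap70, Lck and Cd247, and Rag1, Il2ra and Rag2 were lower. With sgMed12, 5 were higher than with sgCbfb, led by Lck, Cd247 and Lat, and 4 lower, led by Il2ra, Rag1 and Rag2. Cd2 and Cd28 were lower with sgMed12 than with sgCTCF. The Cd28 call there was lost without sgCTCF replicate 1 (-0.90) and without sgMed12 replicate 2 (-0.98) or 3 (-0.81), and without sgCTCF replicate 2 by its adjusted p of 0.054 (range with each library left out 0.0017 to 0.092). The Cd247 call of sgMed12 against sgCbfb was lost without sgMed12 replicate 1 (2.38) or 3 (2.45).

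Progenitor and alternative-lineage regulators were 15 genes, all of them tested in both experiments. Irf8 fell 3.14-fold with sgCbfb in experiment 1, the only one called, and Lmo2 rose 2.20-fold in experiment 2, also the only one called. With Notch stimulation Hoxa9 (3.24-fold) and Mef2c (3.22-fold) fell and Zbtb16 rose (4.71-fold). With sgCbfb in Phase 1 cells Mef2c (3.13-fold), Hoxa9 (2.23-fold) and Lmo2 (4.67-fold) rose, and Zbtb16 fell from 28.2 ± 3.81 to 1.26 ± 1.30 CPM. Irf8, Mef2c and Hoxa9 had positive interactions of 1.67, 1.51 and 1.31. Irf8 was the only one called between stages with sgCbfb. Pax5 rose with sgCTCF (2.56-fold) and Nfil3 fell with sgMed12 (2.27-fold), each the only one of 15. Pairwise, Pax5 was higher and Lmo2 lower with sgCTCF than with sgCbfb. Lmo2 and Cebpb were lower with sgMed12 than with sgCbfb, and Pax5 and Nfil3 were lower with sgMed12 than with sgCTCF. Zbtb16 with Notch stimulation was lost without LP sgControl replicate 1 (1.94) or 2 (2.04) or Phase 1 sgControl replicate 3 (1.98). Lmo2 in Phase 1 cells was lost without sgCbfb replicate 2 (2.07) and was 2.81 without sgControl replicate 2, against 2.21 with all. Nfil3 with sgMed12 was lost without sgControl replicate 2 (-0.88) or 3 (-0.94) or sgMed12 replicate 1 (-0.90) or 3 (-1.11), and against sgCTCF without sgMed12 replicate 1 (-0.89). Cebpb was lost without sgCbfb replicate 2 (-0.94) or sgMed12 replicate 2 (-0.84).

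Finally, genes with profiles most like those of the members called in a comparison with sgControl or between stages, which leaves out Myb, were found over 6 values, the log2 ratios of the other groups to LP sgControl of the same experiment, among the 8621 genes tested in both experiments that averaged more than 10 CPM in some group of each. The measure was the root mean square difference on the log2 scale. For Bcl11b the nearest were Hemgn (0.58), Bace1 (0.64) and Lck (0.66). Bcl11b and Lck were at -2.40 and -1.80 in LP sgCbfb cells of experiment 1, at 2.51 and 1.19 in Phase 1 sgControl cells and at -3.83 and -3.76 in sgCbfb cells of experiment 2. For Gata3 they were Cd82 (0.32), Sgsh (0.33) and Mettl6 (0.35), and for Ets1 Kiz (0.17), Slc45a4 (0.18) and Atpaf1 (0.18). For Tcf7 the nearest were Tmem121 (0.98), Basp1 (1.16) and Cpne2 (1.18), so no gene came within 0.98 of it. In sgCTCF cells Tcf7 was at 2.43, against 0.40 for Tmem121, 1.14 for Basp1 and 0.58 for Cpne2.

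**Figure D4:**
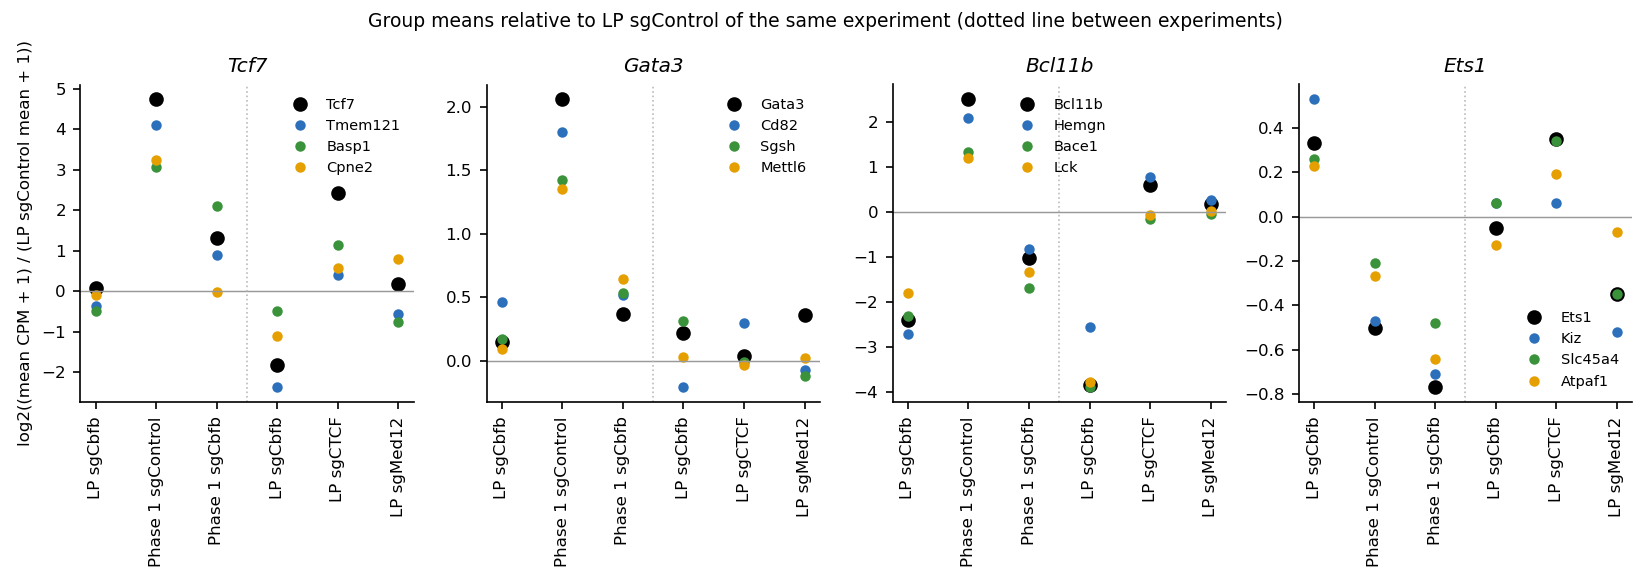
Log2 ratio of each group mean to LP sgControl of the same experiment, with 1 CPM added, for Tcf7, Gata3, Bcl11b and Ets1 (black) and the 3 genes nearest to each (colors). The sgCTCF value of Tcf7, 2.43, lies above those of its 3 nearest genes.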

How the data were processed

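According to the submitters' notes, reads were trimmed with fastp and mapped to mm10 with STAR. Versions, counting tool, strand setting and annotation were not given. The deposited files name their values TPM. They are CPM as the authors scaled them, since within a tolerance of 0.1 read they were whole reads for at least 99.99% of values in each library. The last line, which has no identifier and equals 1 read, and the authors' mean column were not used.

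Each experiment was fitted by itself in limma 3.58.1 (R 4.3.3) on log2(CPM + 1), with 3 libraries per group, moderated variances with a trend and Benjamini-Hochberg adjustment over all genes that reached 1 CPM in 3 or more libraries. Tables used pandas 2.3.3 and numpy 2.4.6. Calls required an adjusted p below 0.05, means that differed by more than 1 on the log2 scale, and at least 1 group that averaged more than 10 CPM; the interaction had no fold threshold and took the mean over any of its 4 groups. Alternatives were edgeR 4.0.16 (quasi-likelihood, recovered reads), other scalings, filters, pseudocounts and thresholds, a replicate block and each library left out. The pipeline was also run on simulated data as a check of the code. Changes were placed only in genes well above the detection limit, and no library was made to stand apart. That run therefore does not cover genes near the limit or the libraries that stood apart here.

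Named genes were the 8 members, the targeted genes and, per list, up to 3 called genes per direction with the largest log2 ratio. A nearest profile was the smallest root mean square difference over 6 log2 ratios. The lists were family relatives, other early T-cell regulators, T-cell identity genes, and progenitor and alternative-lineage regulators. CPM was also summed over marker lists for the labelled and for other cell types, and single markers are named for their level after their values were seen. The members and lists were chosen with earlier results of these data known.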

Additional observations from a re-analysis of the deposited data

Results flagged for a closer look

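The effect of sgCbfb differed between Phase 1 cells and LPs of experiment 1 for 3 of the 8 genes, by a test of the difference itself in limma, which called 1.19% of all genes tested. For Tcf7 the effect in Phase 1 cells minus that in LPs was -3.58 on the log2 scale, with sgCbfb values of 13.0, 8.17 and 17.1 CPM against 183, 149 and 111 CPM in Phase 1 cells and overlapping values in LPs. The Tcf7 call was lost without moderated variances (adjusted p 0.14, range over the alternatives 0.00029 to 0.14). For Gata3 it was -1.85, with all 3 Phase 1 sgCbfb libraries below all Phase 1 sgControl libraries and overlapping values in LPs. For Myb it was -1.23, with 3 of 3 sgCbfb libraries above sgControl in LPs and 3 of 3 below it in Phase 1 cells.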

How the results depend on the processing

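Each experiment was refitted under 24 alternative settings, 12 of them leaving out a library. Of the 19 calls among 88 gene and comparison pairs, 5 were lost under at least 1 setting and 0 when a library was left out, 17 were gained and 0 reversed direction. Without the fold threshold the number of the 8 genes called became 2 for sgCbfb against sgControl in LPs of experiment 1, 3 in experiment 2, 2 for sgCTCF and 1 for sgMed12 against sgControl, 3 for sgMed12 against sgCbfb and 4 for sgMed12 against sgCTCF. It became 4 for sgCbfb in Phase 1 cells, 4 between stages with sgControl and 3 between stages with sgCbfb. Fewer conditions then applied, and the calls over all genes rose as well, from 224 to 333, 570 to 1272, 320 to 1084, 136 to 822, 590 to 1794, 529 to 2105, 466 to 678, 449 to 726 and 158 to 267 in the order given. With a mean over 20 CPM in place of 10 it became 0 for sgCTCF against sgControl and 0 for sgMed12 against sgCTCF. The Tcf7 mean with sgCTCF lay between the thresholds. The calls over all genes fell as well, from 320 to 198 and from 529 to 312. For sgCTCF against sgCbfb the Tcf7 call was also lost, and the calls over all genes went from 905 to 596. Between stages with sgCbfb the number of the 8 genes called became 1 when only the groups compared were fitted and 1 without moderated variances. The calls over all genes then went from 158 to 144 and to 105, and the cause was not tested. Without moderated variances the Tcf7 interaction call was also lost, and the interaction calls over all genes went from 157 to 62. Leaving out each library in turn gave 1 to 2 genes for sgMed12 against sgCbfb and 3 to 4 for sgCbfb in Phase 1 cells, for stages with sgControl and for the interaction. The count of 2 came without replicate 1 or replicate 3 of sgMed12, where Tox passed. For sgMed12 against sgCbfb the calls over all genes were 590 as reported and 387 to 1794 over all settings. The count of 4 came without Phase 1 sgControl replicate 3, and for the interaction also without LP sgCbfb replicate 2. Without Phase 1 sgControl replicate 3 the calls over all genes went from 466 to 477 for sgCbfb in Phase 1 cells, stayed at 449 between stages with sgControl and went from 157 to 223 for the interaction, and without LP sgCbfb replicate 2 to 128.

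Replicates of different groups share only a number. Over 18 same-numbered pairs per experiment, the correlation across genes of deviations from the group means had a median of 0.052 in experiment 1 and 0.067 in experiment 2, and with the replicate number as a block the counts were unchanged in every comparison, 3 for the interaction. Median-of-ratios scaling moved a single library by up to 0.12 on the log2 scale and no comparison's median by more than 0.06. With 3 libraries per group and 1363263 to 1743319 reads in experiment 1, Lef1 lay near the detection limit, and differences in it could be missed.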
